A study of Mus musculus with 72 samples.

Results

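Islets of Langerhans from DBA/2J mice kept on regular chow (RC) were compared between day 33 and day 5 of the study, which shows how the islet transcriptome changed with time in animals that never received the high-fat diet (HFD). The libraries were selected by the labels for strain, diet and day alone: 4 libraries of day 5, 4 of day 13 and 3 of day 33, together 11 of the 69 libraries with values. All 11 are poly(A)-selected RNA-seq libraries of whole islets, 1 male mouse each, 120 to 150 islets per mouse, hand-picked after Liberase digestion of the pancreas and kept overnight in culture medium. No transgene, mutation or drug is named for any group, and all groups share this isolation and culture. For comparison, the same pair of days was read in DBA/2J mice on HFD and in C57BL/6J and BALB/cJ mice on RC. The sample labels give the days as 5, 13 and 33, while the description of the whole series lists 13 days where 33 would stand, and the sample labels are followed here. The labels give an age of 8 weeks without saying whether it holds at the start or at isolation. The sample numbers in the titles fall in a separate block for each day. Age, days on chow and whatever goes with those blocks of numbers (cage, isolation or library round) therefore cannot be told apart.

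DBA/2J is an inbred strain whose islets are known to fail when an obesity mutation is added, and it is widely used to study inherited differences in beta-cell function. Beta cells translate large amounts of proinsulin into the endoplasmic reticulum (ER), where chaperones fold it, and misfolded protein is sent back to the cytosol by ER-associated degradation. When folding or the amino acid supply falls short, kinases of the integrated stress response phosphorylate the initiation factor eIF2alpha, general translation slows, and the transcription factor ATF4 induces genes for amino acid uptake, amino acid synthesis and tRNA charging. Chow-fed animals set the baseline against which the time course of a diet is read.

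The islet identity of the 11 libraries was plain from their hormone genes. Ins1 and Ins2, which encode the insulins, took 15.5% to 16.8% of the CPM on day 5, 16.3% to 22.8% on day 13 and 14.6% to 20.4% on day 33, and Gcg, which encodes glucagon, lay between 14.73 and 15.64 log2 CPM in every library. Values are log2 CPM, the log2 of a gene's reads scaled by the authors' normalization, with a small offset, so that a gene without reads lies at -3.54. The library totals were not equal: summed CPM ran from 938864 in replicate 4 of day 13 to 1.07e+06 in replicate 3 of day 13. The libraries held 12984004 to 30520111 reads. In a principal component analysis the first component (26.1% of the variance) set replicate 3 of day 13 at 42.9 against -20.6 to 9.0 for the other 10 libraries, and its median distance to the others was 0.483 log2 units against 0.346 to 0.412. Replicate 1 of day 33 was lowest on the second component, at -24.1, and replicates 3 and 4 of day 5 were highest, at 19.9 and 24.7. The median distance between a day 33 and a day 5 library was 0.387 log2 units, and that between libraries of the same day was 0.371.

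**Figure D1:**
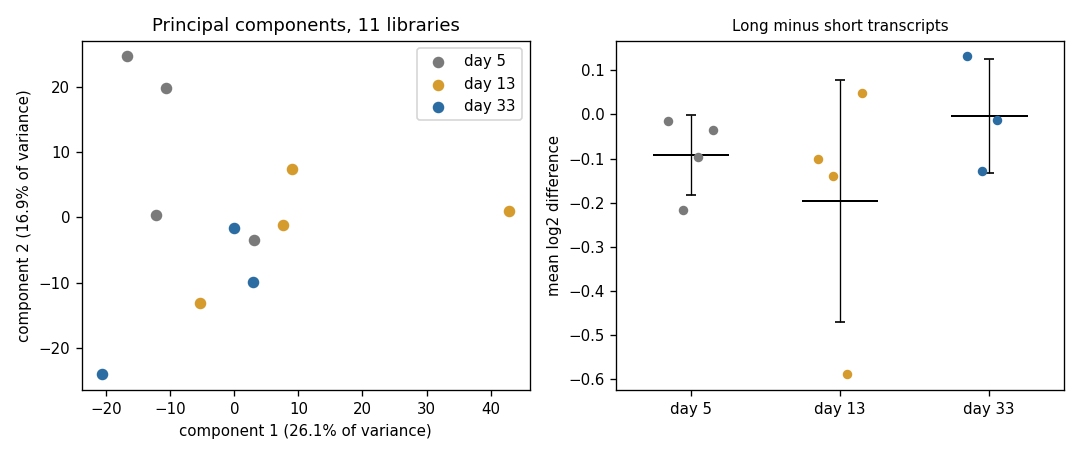
Left, the first and second principal component of the 11 DBA/2J chow libraries, 1 point per library, coloured by day. Right, the mean level of the longest 20% of genes minus that of the shortest 20% (log2 units, each gene relative to its mean over all libraries), with the mean (line) and SD (bar) of each day. Replicate 3 of day 13 lies apart in both panels, at 42.9 on component 1 and at -0.59 log2 units.

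Few single genes differed between day 33 and day 5 beyond the spread of replicates. Of 14604 genes 1 passed an adjusted p of 0.05 in limma's moderated test with Benjamini-Hochberg adjustment (0.00685% of the genes), Ino80c, which was lower on day 33. At an unadjusted p under 0.05 there were 759 genes higher and 832 lower, 10.9% of the genes together, and voom, a weighted fit to the recovered reads, called 3 genes after adjustment. The median absolute change over all genes was 0.12 log2 units, below the median standard error of 0.14. The median change was -0.01. Libraries of day 33 and day 5 did not overlap for 2082 genes (14.3%), 996 of them higher on day 33 (6.82%) and 1086 lower (7.44%).

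How many genes pass depends on which libraries set the spread. The limma fit estimates 1 variance per gene from all 69 libraries. With the 34 RC libraries of the 3 strains as the base, 53 genes passed (0.363%), 29 higher and 24 lower on day 33. With the 22 DBA/2J libraries 27 passed (0.185%), 21 higher and 6 lower. With the 11 chow libraries alone none passed, and 1733 were under an unadjusted p of 0.05. With libraries weighted by their own scatter 1152 passed (7.89%). These fits share the same day 33 and day 5 libraries and the same log2 changes apart from the weighted one, so they are not separate evidence.

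Ino80c encodes a subunit of the INO80 chromatin remodelling complex, which slides and exchanges nucleosomes. It read 3.78, 4.03 and 3.90 log2 CPM in the 3 libraries of day 33, against 4.31, 4.32, 4.45 and 4.59 log2 CPM in the 4 of day 5. Every day 33 library lay below every day 5 library, and the 4 libraries of day 13, at 4.24, 4.19, 4.19 and 4.19, lay in the gap. The change was -0.52 ± 0.10 log2 units (SE), to 0.70 of the day 5 level, with an adjusted p of 0.0195 by limma. The call was lost in 4 of the 7 fits that left out 1 of these libraries (without replicate 1 or 3 of day 33, or replicate 3 or 4 of day 5), where the change stayed between -0.58 and -0.46.

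The other 9 genes of lowest p did not pass, with adjusted p from 0.0598 to 0.0805 by limma. Slc7a1, the main carrier for arginine and lysine, read 6.30, 6.10 and 6.15 log2 CPM on day 33, against 5.55, 5.70, 5.56 and 5.55 on day 5, a difference of 0.59 ± 0.13 (SE). Aqp4, a water channel, read 3.40, 3.34 and 3.26 on day 33, against 4.02, 4.04, 3.97 and 3.92 on day 5, a difference of -0.66 ± 0.14. Neither gene's groups overlapped. Tecpr2, which takes part in autophagy and in export from the ER, differed by 0.34 ± 0.07, and Dnajc1, an ER membrane co-chaperone, by 0.31 ± 0.07. Gbf1, the exchange factor that drives vesicle coats at the early Golgi, differed by 0.31 ± 0.07. Txlna, a binding partner of syntaxins, differed by 0.43 ± 0.10, and the kinase genes Stk32a and Cdk18 differed by 0.54 ± 0.12 and 0.56 ± 0.13. Tbp, the TATA-binding protein of all 3 nuclear RNA polymerases, differed by -0.45 ± 0.10, reading 4.03, 3.70 and 3.75 on day 33 against 4.24, 4.25, 4.27 and 4.34 on day 5.

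**Figure D2:**
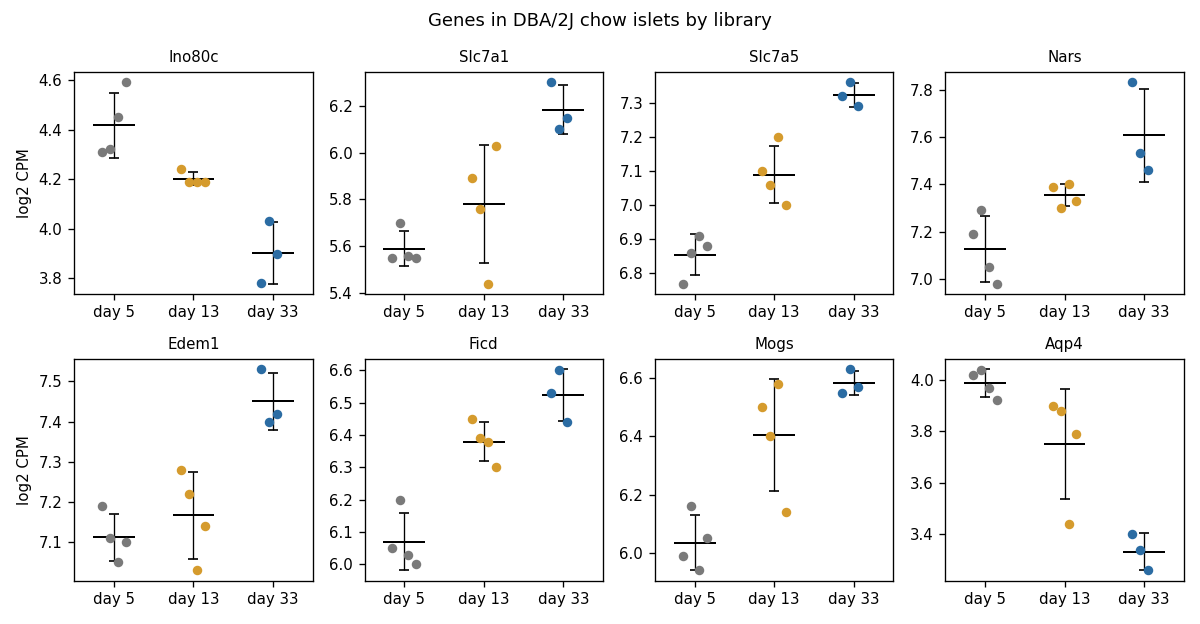
Level of 8 genes (log2 CPM) in each DBA/2J chow library on days 5, 13 and 33, 1 point per library, with the mean (line) and SD (bar) of each day. Ino80c and Aqp4 are lower in all 3 day 33 libraries than in all 4 of day 5, and Slc7a1, Slc7a5, Nars, Edem1, Ficd and Mogs are higher. Of these 8 genes Ino80c alone passed the test over all genes.

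Genes of the integrated stress response had mostly positive changes, without single calls. Of 27 measured members none passed the adjusted test, while 25 had a positive change and 12 had an unadjusted p under 0.05 in that direction, where the background of genes higher at that level is 5.2%. Their median change was 0.34 log2 units, 1.27 times the day 5 level, against -0.01 over all genes. The mean level of the list was 5.13, 5.19 and 5.14 log2 CPM on day 33, against 4.64, 4.91, 4.86 and 4.69 on day 5. The groups did not overlap (exact two-sided permutation p = 0.0286, the smallest possible with 35 arrangements). This p was not adjusted for the many lists compared. Day 13 lay at 4.78 to 5.12, with its highest value in the library that stands apart. The libraries of single genes did not overlap for 11 of the 27, all 11 higher on day 33, where 6.82% of all genes do so. With libraries weighted by their scatter 6 members passed (22.2%), where 7.89% of all genes did.

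Among the members, Cars, the cysteinyl-tRNA synthetase, read 6.26, 6.21 and 6.14 log2 CPM on day 33, against 5.61, 5.95, 5.65 and 5.40 on day 5, a difference of 0.55 ± 0.16 (SE; adjusted p = 0.166 by limma). Slc7a5, the light chain of the carrier for leucine and other large neutral amino acids, read 7.32, 7.36 and 7.29 on day 33, against 6.77, 6.86, 6.91 and 6.88 on day 5, a difference of 0.47 ± 0.14 (adjusted p = 0.177). In both genes every day 33 library lay above every day 5 library. Mthfd2, a mitochondrial enzyme of folate metabolism, read 6.37, 6.19 and 6.06 on day 33, against 5.58, 5.80, 5.46 and 5.52 on day 5, a difference of 0.61 ± 0.22 (adjusted p = 0.275). Slc7a11, the cystine importer, lay near the floor and spread widely, with 0.79, 0.57 and 0.32 on day 33, against -1.81, -1.25, 0.36 and -1.39 on day 5 (difference 1.58 ± 0.59, adjusted p = 0.302). Its groups overlapped through replicate 3 of day 5.

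The promoters of several members carry the letters TGATGNAA, the core shared by composite sites of C/EBP and ATF proteins, read on both strands. Of the 23 measured members with a promoter in the RefSeq set (250 bases before to 50 after the start, GRCm38.p6), 9 hold it (39.1%), against 3.97% of all 32851 promoters in the set. The members were counted by gene, with a site in any promoter of the gene. The whole set was counted by promoter, so the shares have unlike units. Of the members read above, Slc7a11 alone is among the 9, and Cars, Slc7a5 and Mthfd2 are not. Stretches before the start of 3 of the 9 genes are shown because these genes are standard readouts of this response. The 8 matching letters, or their reverse complement, are in capitals. The changes of Asns and Chac1 are not given here. Asns encodes asparagine synthetase (chr6:7693210-7693252, minus strand, the site beginning 23 bases before the start). Chac1 encodes a glutathione-degrading enzyme (chr2:119351029-119351076, plus strand, 193 bases before the start). Slc7a11 holds a pair of sites (chr3:50443633-50443699, minus strand, the first at 66 bases before the start). A match of letters is a description and no evidence of binding. The share describes the list and does not bear on the change between the days.
Asns: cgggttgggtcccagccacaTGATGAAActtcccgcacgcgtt
Chac1: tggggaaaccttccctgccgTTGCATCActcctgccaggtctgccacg
Slc7a11: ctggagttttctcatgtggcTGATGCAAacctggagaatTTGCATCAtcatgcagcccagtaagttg

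ER chaperones and genes of ER-associated degradation also had mostly positive changes without single calls. Of 31 measured members none passed the adjusted test, while 29 had a positive change and 12 had an unadjusted p under 0.05 in that direction (background 5.2%). The libraries of day 33 lay wholly above those of day 5 for 18 of the 31, where 6.82% of all genes do so, and wholly below for none. With libraries weighted by their scatter 7 members passed (22.6%; background 7.89%). The median change was 0.25 log2 units, 1.19 times the day 5 level. The mean level of the list was 8.43, 8.43 and 8.29 log2 CPM on day 33, against 8.12, 8.13, 8.09 and 8.21 on day 5. There was no overlap (exact two-sided permutation p = 0.0286, the smallest possible with 35 arrangements). Here too the p was not adjusted for the many lists compared. Day 13 lay at 8.02 to 8.24, over the range of day 5, and the median change from day 5 to day 13 was 0.01.

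Edem1, which picks misfolded glycoproteins for degradation, read 7.53, 7.40 and 7.42 log2 CPM on day 33, against 7.19, 7.11, 7.05 and 7.10 on day 5, a difference of 0.34 ± 0.11 (SE; adjusted p = 0.203 by limma). Sec61a1, the channel through which proinsulin enters the ER, read 8.70, 8.77 and 8.66 on day 33, against 8.33, 8.46, 8.28 and 8.38 on day 5, a difference of 0.35 ± 0.11 (adjusted p = 0.222). Herpud1, a scaffold of the degradation complex, differed by 0.52 ± 0.18 (adjusted p = 0.245), and Derl1, a component of the export channel, by 0.22 ± 0.08 (adjusted p = 0.275). None of these 4 genes overlapped between day 33 and day 5. Herpud1 was already at 7.61 to 7.97 on day 13, against 7.12 to 7.61 on day 5, while Edem1 on day 13, at 7.03 to 7.28, covered the day 5 range.

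The ER stress response element, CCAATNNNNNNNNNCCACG on either strand, is held by 9 of the 25 measured members with a RefSeq promoter (36.0%), against 0.119% of all promoters in the set. Here too the members were counted by gene and the set by promoter, and the share describes the list, not a change with day. None of Edem1, Sec61a1, Herpud1 and Derl1 is among the 9. Stretches before the start of 3 chaperone and folding genes of the 9 are shown for comparison with the amino acid response sites above. The CCAAT and CCACG parts, or their reverse complements, are in capitals, and the changes of these 3 genes are not given here. Hspa5 encodes the major ER chaperone BiP (chr2:34772005-34772063, plus strand, the element beginning 65 bases before the start). Pdia6 encodes a protein disulfide isomerase (chr12:17266471-17266529, plus strand, 98 bases). Creld2 encodes an ER protein that responds to stress (chr15:88819500-88819558, plus strand, 126 bases).
Hspa5: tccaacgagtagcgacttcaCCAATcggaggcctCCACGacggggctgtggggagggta
Pdia6: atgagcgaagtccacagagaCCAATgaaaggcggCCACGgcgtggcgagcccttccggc
Creld2: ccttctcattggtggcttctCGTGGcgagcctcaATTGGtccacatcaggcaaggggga

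**Figure D3:**
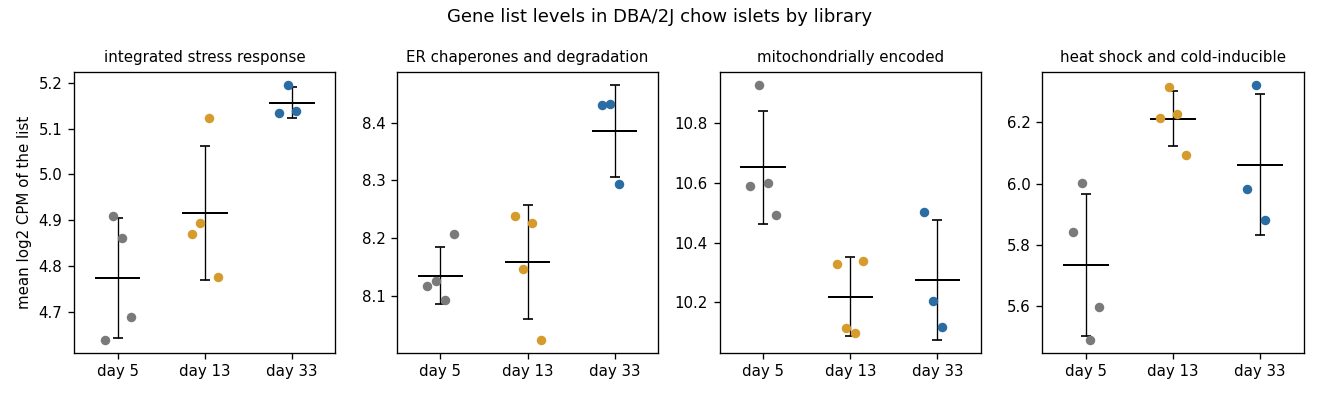
Mean level (log2 CPM) of 4 gene lists in each DBA/2J chow library on days 5, 13 and 33, 1 point per library, with the mean (line) and SD (bar) of each day. The integrated stress response and the ER list lie higher in all day 33 libraries than in all of day 5, the mitochondrially encoded genes are lower on days 13 and 33 apart from overlap of 1 library of day 33, and the heat shock list overlaps between day 33 and day 5.

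The 53 genes called with the RC libraries and the 27 called with the DBA/2J libraries shared 15 genes, named here after their values were seen. Ino80c, Hnrnpdl, a splicing factor, and the uncharacterized 9230112J17Rik were lower on day 33, and the other 12 were higher. These were Slc7a1, Slc7a5, Slc38a7 and Slc6a17, which carry amino acids across membranes, Nars, the asparaginyl-tRNA synthetase, and Aldh18a1, the enzyme that starts proline synthesis from glutamate. They also included Ficd, which modifies BiP in the ER, Mogs, the glucosidase that makes the first cut in new N-glycans, and Mlec, an ER lectin, besides Hdlbp, Oaf and Stk32a. Nars read 7.83, 7.53 and 7.46 log2 CPM on day 33, against 7.19, 7.29, 7.05 and 6.98 on day 5 (adjusted p = 0.135 over all libraries by limma). Ficd read 6.53, 6.60 and 6.44 on day 33, against 6.05, 6.20, 6.03 and 6.00 on day 5 (adjusted p = 0.116), and Mogs read 6.55, 6.63 and 6.57 on day 33, against 5.99, 6.16, 5.94 and 6.05 on day 5 (adjusted p = 0.208). Hnrnpdl read 6.77, 6.77 and 6.56 on day 33, against 7.20, 7.16, 7.53 and 7.40 on day 5 (adjusted p = 0.135). In these 4 genes the groups did not overlap.

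Heat shock and cold-inducible genes had larger scatter. Of 18 members none passed, and 15 had a positive change, with a median of 0.37. At an unadjusted p under 0.05, 3 were higher and 2 lower (background 5.2% and 5.7%). With libraries weighted by their scatter 5 passed (27.8%; background 7.89%), 3 higher and 2 lower. Hsph1, a cofactor of cytosolic HSP70, read 8.05, 7.77 and 7.67 log2 CPM on day 33, against 7.29, 7.53, 5.87 and 6.03 on day 5 (difference 1.15 ± 0.43, SE; adjusted p = 0.305 by limma). Hspa8, the constitutive cytosolic HSP70, differed by 0.55 ± 0.24. In both genes replicates 3 and 4 of day 5 were the low ones. The RNA-binding proteins Cirbp and Rbm3, which cooling of cells induces, had negative changes: Rbm3 read 4.88, 5.35 and 5.60 on day 33, against 6.00, 5.77, 6.33 and 6.12 on day 5 (difference -0.78 ± 0.27, adjusted p = 0.256), and Cirbp differed by -0.77 ± 0.26 (adjusted p = 0.245). Replicate 1 of day 33 was lowest in both. That same library held the highest Per2 (5.94) and Cry1 (5.21) and the lowest Nr1d1 (3.89), 3 genes of the circadian feedback loop.

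Per2, a repressor of the clock, read 5.94, 5.36 and 5.14 log2 CPM on day 33, against 4.67, 4.78, 4.78 and 4.77 on day 5, a difference of 0.73 ± 0.21 (SE; adjusted p = 0.167 by limma). Nr1d1, the nuclear receptor that represses Arntl, read 3.89, 4.49 and 5.23 on day 33, against 5.15, 5.15, 5.52 and 5.29 on day 5 (-0.74 ± 0.42, adjusted p = 0.541). Arntl itself, the clock activator, read 5.29, 5.04 and 4.78 on day 33 and 5.08, 4.93, 4.97 and 5.02 on day 5. Of the 20 clock genes none passed, and 2 were higher and none lower at an unadjusted p under 0.05 (background 5.2% and 5.7%). The labels used here give no clock time of isolation.

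Transcripts of the mitochondrial genome had negative changes after day 5. All 7 measured members (of 13 listed) had a negative change between day 33 and day 5, with a median of -0.35 log2 units, 0.78 of the day 5 level, and 5 were under an unadjusted p of 0.05 (background of lower genes 5.7%), though none passed after adjustment. mt-Nd1, a subunit of complex I, read 10.96, 10.78 and 10.90 log2 CPM on day 33, against 11.22, 11.64, 11.38 and 11.30 on day 5, a difference of -0.50 ± 0.15 (SE; adjusted p = 0.188 by limma). mt-Cytb, of complex III, differed by -0.28 ± 0.12 (adjusted p = 0.37). Both lay below every day 5 library on day 33. With libraries weighted by their scatter 4 of the 7 members passed, all lower (57.1%; background 7.89%). The median was already -0.43 between day 13 and day 5, when 6 of 7 were under an unadjusted p of 0.05 (background of lower genes 9.17%). The nuclear genes of oxidative phosphorylation did not share this pattern: 26 of 61 had a positive change, the median was -0.02, and none was under 0.05 unadjusted in either direction.

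Genes that define and serve the beta cell had a median change near 0, with a few members lower on day 33 before adjustment. Of 29 identity and function genes 14 had a positive change, the median was -0.01, none passed, and none was higher and 4 were lower at an unadjusted p under 0.05 (background 5.2% and 5.7%). Day 33 lay wholly below day 5 for 5 of the 29 and wholly above for 2, where 7.44% and 6.82% of all genes do so. Ins2 read 16.63, 17.22 and 17.08 log2 CPM on day 33 and 16.74, 16.90, 16.80 and 16.72 on day 5, a difference of 0.19 ± 0.23 (SE; adjusted p = 0.825 by limma). Iapp, the amylin gene, differed by -0.01 ± 0.11, Pdx1, the homeobox factor of beta cells, by 0.04 ± 0.10, and Ucn3, a marker of mature beta cells, by 0.11 ± 0.12. The 4 lower ones were Slc2a2, Neurod1, Cltrn and Trpm5. Slc2a2, the glucose transporter GLUT2, read 9.81, 9.89 and 9.98 on day 33, against 10.31, 10.18, 10.33 and 10.26 on day 5, with no overlap and a difference of -0.38 ± 0.15 (adjusted p = 0.357). Neurod1, a transcription factor of islet cells, differed by -0.25 ± 0.09 (adjusted p = 0.281). Of 29 genes of the exocytosis machinery 18 had a positive change, with a median of 0.03, and none passed.

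The other endocrine cells and the metabolic lists showed small shifts, none with a member past the adjusted test. Of 14 alpha-cell genes 2 had a positive change (median -0.13): Gcg read 15.07, 15.12 and 14.89 log2 CPM on day 33 and 15.41, 15.64, 15.29 and 15.13 on day 5, a difference of -0.34 ± 0.20 (SE; adjusted p = 0.542 by limma). Cholesterol synthesis and uptake had 21 of 25 positive with a median of 0.13, and fatty acid oxidation had 11 of 38 positive with a median of -0.16. Acadl, the long-chain acyl-CoA dehydrogenase, read 4.02, 4.05 and 4.15 on day 33, against 4.42, 4.47, 4.61 and 4.38 on day 5, a difference of -0.40 ± 0.12 (adjusted p = 0.205). Cytosolic ribosomal proteins had 7 of 79 positive with a median of -0.10. DNA replication and mitosis had 6 of 39 positive with a median of -0.16, and Mki67, the Ki-67 proliferation antigen, read 4.14, 4.01 and 3.89 on day 33 and 4.25, 3.54, 4.13 and 4.33 on day 5.

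Markers of cells outside the islet were present and varied between libraries. The mean level of 30 acinar genes, which encode digestive enzymes of the exocrine pancreas, was 5.58 to 7.25 log2 CPM on day 5, 3.99 to 6.50 on day 13 and 5.45 to 6.48 on day 33, and their median change from day 5 to day 33 was -0.46 with 1 of 30 positive. That median rested on single libraries: it was -0.09 without replicate 2 of day 5 and -0.71 without replicate 4 of day 5, and -0.30, -0.81 and -0.25 without replicates 1, 2 and 3 of day 33. That 1 was Bhlha15, a factor of secretory cells that also serves the ER, at 6.99, 7.02 and 6.80 on day 33, against 6.26, 6.42, 5.97 and 5.97 on day 5 (0.78 ± 0.26, SE; adjusted p = 0.241 by limma). Macrophage genes had 1 of 18 positive with a median of -0.21 and a mean level of 2.23 to 2.52 on day 33 against 2.32 to 2.85 on day 5. In whole islets fewer cells of a type and less RNA per cell cannot be told apart. Over 15 alternative fits the median of the integrated stress response lay at 0.31 to 0.38. That of the ER list lay at 0.25 to 0.29. These fits included the acinar, macrophage or stellate level as a covariate. Several of the others keep the same log2 changes, so they could not move the medians. Whether cell content shaped these medians was not tested. The 4 measured Reg genes, which respond to pancreatic injury, had a median of 0.98, or 0.53 without replicate 4 of day 5 and 0.10 with genes of mean log2 CPM above 2 alone. Reg3b read 1.23, -0.15 and 2.33 on day 33 and -0.86, -1.25, -0.14 and -3.54 on day 5 (adjusted p = 0.325), overlapping at -0.15 and -0.14.

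Against day 5, day 13 differed in 2 genes after adjustment (0.0137%), both higher and both on chromosome 2, while 16.9% of genes were under an unadjusted p of 0.05. They are Zfp970 (chr2:177464733-177478129, plus strand) and Gm14403 (chr2:177498215-177509763, plus strand), neighbouring genes of a large cluster of zinc finger genes. Gm14403 read -3.07, -3.54, -2.47 and -2.65 log2 CPM on day 5, with 0 to 3 reads, then 0.36, -2.85, 1.68 and 2.5 on day 13, with 23, 1, 51 and 115 reads, and -2.86, -3.54 and -3.54 on day 33, with 0 or 1 read. Zfp970 read -3.54, -3.54, -3.54 and -2.10 on day 5, then -0.60, -3.54, 0.95 and 1.86 on day 13, and -2.86, -2.90 and -3.54 on day 33. So both genes were found in 3 of the 4 mice of day 13 and were at or near the floor in the other mouse and on the other days. The fitted changes between day 13 and day 5 were 3.35 ± 0.45 (SE; adjusted p = 9.5e-06 by limma) for Gm14403 and 2.84 ± 0.45 (adjusted p = 0.000296) for Zfp970, and with values near the floor their size depends on the offset. Neither gene passed with the 11 libraries alone, with the 22 DBA/2J libraries or with voom. In DBA/2J mice on HFD the pattern over days was the same: Gm14403 read 2.69, 3.40 and 1.82 on day 13, while day 33 and day 5 libraries held 0 to 2 reads. The pair were not alone: Gm14418, a predicted gene also named after its values were seen, did not pass but had a like order. It held 6, 2, 6 and 23 reads on day 13 of RC, against 1 to 5 on days 5 and 33. On HFD it held 25, 30 and 26 reads on day 13, against 1 to 6 on days 5 and 33.

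The pair resemble each other at their start. Aligned over 235 bases up to about the RefSeq start (GRCm38.p6) their sequences differ at 11 bases (95.3% identity), given in capitals, at chr2:177464507-177464741 for Zfp970 and chr2:177497976-177498210 for Gm14403. They are shown for the likeness of the pair, which lies before the start and so largely outside the transcripts. In the spliced transcripts 11.2% of the 125-base windows of Zfp970, the length of the reads, also occur in another gene, and 0.24% of those of Gm14403, counting exact matches to the reference alone. For Gm14418 the share was 32.8%, mostly windows that also occur in Gm14322. Zfp970 was not among the genes that share windows with Gm14403, so by exact matches the pair share none with each other. Mismatches and DBA/2J variants were not considered. How reads with several matches were counted is not given in the sources used here, so the values of the pair and of Gm14418 are uncertain.
Zfp970: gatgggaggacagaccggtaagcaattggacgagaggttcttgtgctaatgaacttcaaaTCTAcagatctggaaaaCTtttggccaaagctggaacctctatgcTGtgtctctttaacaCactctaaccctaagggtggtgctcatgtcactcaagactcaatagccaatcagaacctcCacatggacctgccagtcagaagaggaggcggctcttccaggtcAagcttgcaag
Gm14403: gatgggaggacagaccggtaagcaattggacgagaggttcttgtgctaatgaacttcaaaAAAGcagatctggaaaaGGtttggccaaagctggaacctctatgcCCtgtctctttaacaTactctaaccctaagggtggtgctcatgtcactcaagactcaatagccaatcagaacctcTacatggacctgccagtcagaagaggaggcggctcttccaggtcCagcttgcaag

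**Figure D4:**
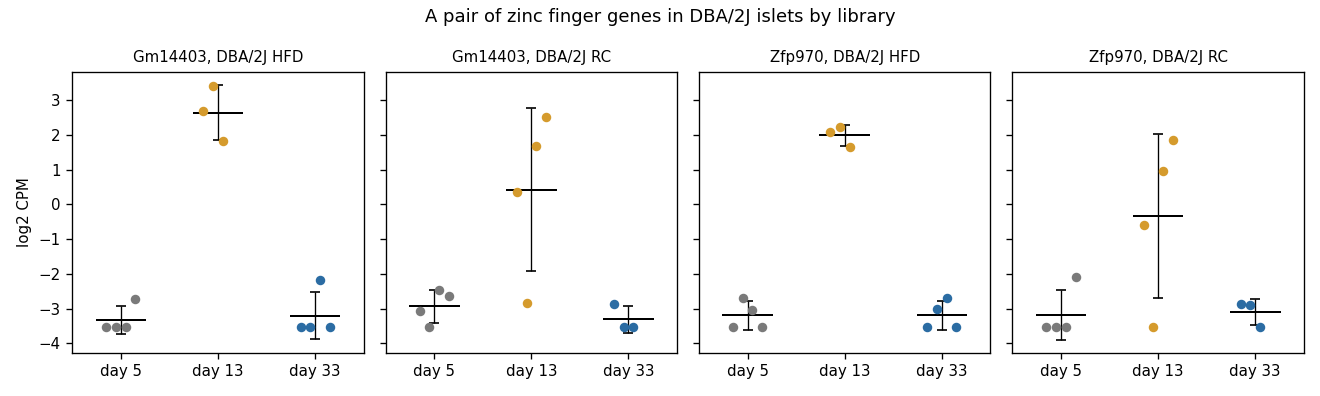
Level (log2 CPM) of Gm14403 and Zfp970 in each DBA/2J library on days 5, 13 and 33, in HFD (left panel of each pair) and RC (right panel), 1 point per library, with the mean (line) and SD (bar) of each day. A gene without reads lies at -3.54. Both genes are high on day 13, in 3 of the 4 RC and all 3 HFD libraries, and near the floor on days 5 and 33.

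Between day 33 and day 13, 6 genes passed (0.0411%), and 11.9% were under an unadjusted p of 0.05. Zfp970 and Gm14403 were lower on day 33, as described. Homer3, a scaffold of postsynaptic signalling that was named after its values were seen, read 0.16, 0.66 and 1.04 log2 CPM on day 33, against 1.61, 1.65, 1.48 and 1.70 on day 13 (-0.99 ± 0.21, SE; adjusted p = 0.034 by limma), and Hexdc, a hexosaminidase, fell by 0.60 ± 0.13 (adjusted p = 0.0386). Golga4, a tethering protein of the trans-Golgi network, read 9.27, 9.09 and 9.05 on day 33, against 8.80, 8.71, 8.57 and 8.76 on day 13 (0.42 ± 0.08, adjusted p = 0.0201), and Dst, a giant linker of the cytoskeleton, rose by 0.45 ± 0.09 (adjusted p = 0.0201). The days did not overlap for any of these 4. Leaving out single libraries ended the call of Homer3 in 5 of 7 fits, with adjusted p up to 0.999 by limma without replicate 1 of day 33, of Hexdc in 4, of Golga4 in 4, of Dst in 2 and of Zfp970 in 1. Golga4 and Dst have long transcripts, and over the longest 20% of genes the median change between day 33 and day 13 was 0.12, against -0.09 over the shortest 20%. With a transcript length score as a covariate, chosen after seeing the data, Golga4 no longer passed (0.37, adjusted p = 0.13 by limma). Replicate 3 of day 13, the library that stands apart, was lowest in both, and without it 1 gene passed and the changes of Golga4 and Dst were both 0.38. Both calls were also lost without replicate 1 of day 33, and without replicate 4 of day 13 the count was 70. A test of any change over the 3 days called 3 genes (0.0205%), with 16.1% under an unadjusted p of 0.05.

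Long and short transcripts diverged less between day 33 and day 5. The median change was -0.05 over the shortest 20% of genes and 0.03 over the longest, where the same pair of days in HFD libraries gave -0.17 and 0.22. Per library, the long minus the short group was 0.13, -0.13 and -0.01 on day 33 and -0.02, -0.22, -0.10 and -0.04 on day 5 (exact two-sided permutation p = 0.4, the smallest possible being 0.0286). With this measure as a covariate 100 genes passed between day 33 and day 5 (0.685%), 54 higher and 46 lower, Ino80c among them.

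On HFD 3407 genes passed the adjusted test between the same days in this strain (23.3%), 1855 higher (12.7%) and 1552 lower (10.6%), a count that does not itself show a difference from chow. The chow and HFD libraries are separate mice. The test of the difference between the changes called 2 genes (0.0137%), with 23.9% under an unadjusted p of 0.05, and ranged from 0 to 1060 genes when single libraries were left out, the most without replicate 2 of day 5 of HFD. The long minus short transcript measure also moved with day on HFD, at 0.0085, -0.0047, 0.076 and 0.11 on day 33 and -0.075, -0.29, -0.58 and -0.37 on day 5. With it as a covariate 0 genes differed after adjustment and 1216 at an unadjusted p under 0.05, against 3494 without it. Both had a lower change on chow: Ino80c, which read 4.38, 4.32, 4.26 and 4.43 log2 CPM on day 33 and 4.20, 4.30, 4.13 and 4.19 on day 5 of HFD (difference between the changes -0.66 ± 0.13, SE; adjusted p = 0.0488 by limma), and Arl6ip6. Arl6ip6 read 4.0, 3.72 and 3.92 on day 33 and 4.29, 4.33, 4.02 and 4.05 on day 5 of chow, and 4.06, 4.09, 3.98 and 4.25 on day 33 and 3.88, 3.64, 3.66 and 3.55 on day 5 of HFD (-0.70 ± 0.14, adjusted p = 0.0488). The integrated stress response had a median change of 0.02 on HFD, where 1 member was higher and 1 lower, and the ER list 0.14, where 8 were higher and none lower. Mitochondrially encoded genes had a median of 0.07 there. Whether the lists differ between the diets was not tested.

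In chow-fed C57BL/6J islets 18 genes passed between day 33 and day 5 (0.123%) and in BALB/cJ 1 gene (0.00685%). The change in DBA/2J differed from that in C57BL/6J for 31 genes (0.212%; 15.8% unadjusted), 11 with a higher and 20 with a lower change in DBA/2J, and for none from that in BALB/cJ, where 1471 genes (10.1%) were under an unadjusted p of 0.05 and voom called none. Ino80c differed again: in C57BL/6J it read 4.31, 4.16 and 4.18 log2 CPM on day 33 and 3.98, 3.95, 3.93 and 3.99 on day 5, the opposite order to DBA/2J (difference between the changes -0.77 ± 0.13, SE; adjusted p = 0.00564 by limma). Rbm3 was likewise opposed, at 5.80, 5.88 and 5.93 on day 33 and 4.37, 4.63, 4.92 and 4.53 on day 5 of C57BL/6J (-2.04 ± 0.38, adjusted p = 0.0133). Zranb1, a deubiquitinase, and Ranbp17, a nuclear transport receptor, had lower changes in DBA/2J, by -0.85 ± 0.18 and -1.15 ± 0.25 (adjusted p = 0.0361 for each). Gbf1 had a higher change in DBA/2J by 0.53 ± 0.10 (adjusted p = 0.0206), and so had Dhdds, which makes the dolichol lipid on which N-glycans are built, by 0.88 ± 0.19 (adjusted p = 0.0361). Dhdds read 7.32, 7.29 and 7.14 on day 33 and 6.83, 6.87, 6.79 and 6.99 on day 5 of DBA/2J, against 6.66, 6.61 and 6.67 on day 33 and 7.22, 7.22, 6.89 and 7.24 on day 5 of C57BL/6J. The number of called genes ranged from 0, without replicate 1 of day 33 of DBA/2J, to 104, without replicate 3 of day 5 of C57BL/6J.

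In the other chow-fed strains the lists with the highest DBA/2J medians, Reg genes apart, read as follows. The integrated stress response had a median change of -0.13 in C57BL/6J and 0.01 in BALB/cJ, and the ER list of -0.13 in each, with no member called in either strain. The heat shock list had -0.36 in C57BL/6J and 0.00 in BALB/cJ. The lists were not tested between strains. The circadian list had 0.24 in both other strains and 0.05 in DBA/2J, and the glucocorticoid-induced list had 0.09 in DBA/2J, 0.11 in C57BL/6J and 0.23 in BALB/cJ.

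**Figure D5:**
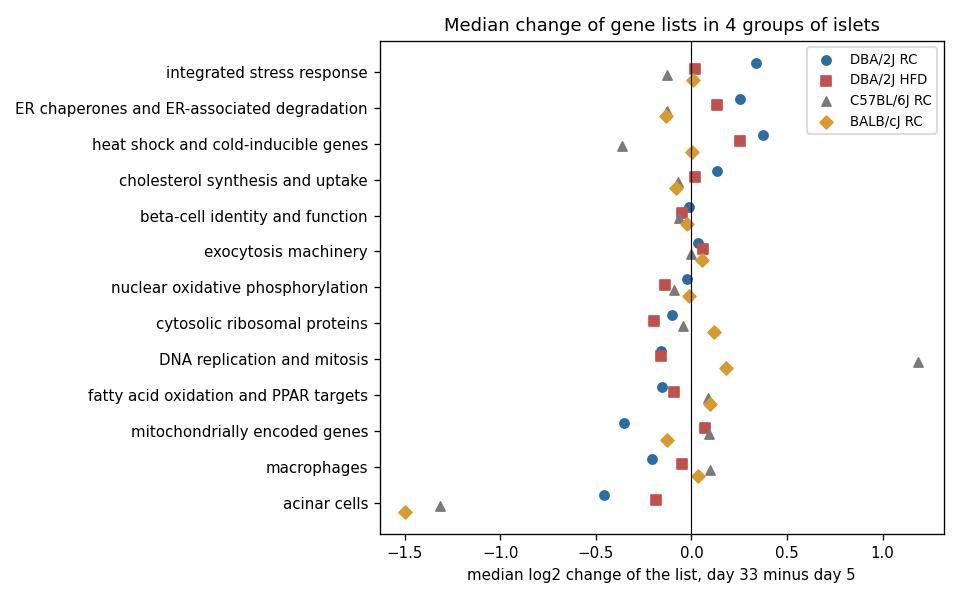
Median log2 change between day 33 and day 5 over the measured members of 13 gene lists (rows), in DBA/2J RC, DBA/2J HFD, C57BL/6J RC and BALB/cJ RC islets, 1 marker per group, drawn without error. In DBA/2J RC the integrated stress response (0.34) and the ER list (0.25) lie right of the other 3 groups, and the mitochondrially encoded genes (-0.35) lie left of them.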

How the data were processed

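Single-end reads of 125 bases from stranded poly(A) libraries were processed by the authors with STAR 2.5.3a, HTSeq 0.9.1, edgeR and the GRCm38 build, per the submitters' processing notes, which give no order or roles. The authors deposited 1 table of normalized log2 CPM for 14604 genes. The value of a gene without reads is -3.54 (0.0862 CPM), and every value gave a whole number of reads within 0.05. The reads of each library over these genes could therefore be recovered. A depth of 12984004 to 30520111 reads over these genes sets the counting error, which is largest for genes of few reads. Homer3, for example, held 44 to 65 reads in the day 13 libraries. Counting error was not set apart from the spread between mice for single genes. Of 72 labelled samples 69 had values, and the other 3, among them 1 DBA/2J chow sample of day 33, were not analysed here. Of the gene IDs 14589 matched the reference gene annotation, and 62 symbols were missing or read as dates.

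Means of 18 groups of strain, diet and day were fitted to the deposited log2 values of all 69 libraries with limma 3.58.1 (R 4.3.3; trended empirical Bayes, two-sided moderated tests, Benjamini-Hochberg adjustment over all genes at 0.05). A filter of log2 CPM above 0 in at least 4 libraries removed 0 genes. Differences between groups in the day 33 minus day 5 change were contrasts of the same fit. Scripts were tested on simulated data. No sample carries a donor or culture label beyond 1 mouse per library. The p-values therefore measure the spread between libraries within groups, pooled over the 18 groups of strain, diet and day. Mouse, isolation, culture and library preparation cannot be told apart in that spread.

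The named genes are the 10 of lowest p between day 33 and day 5, called genes of the other comparisons, the 4 members of lowest p of each list and fixed islet and clock genes. Predicted and non-coding genes and the lowest 25% by level (under 2.21 log2 CPM) were left out, apart from genes said to be named after their values were seen, which include Gm14403 and Zfp970. Genes shown besides these as list members or figure examples (Slc7a11, Hspa8, Cry1, Nr1d1, Trpm5, Cltrn and Bhlha15 among them) come from the lists. The comparison, the gene lists and the tests were chosen with earlier results of these data known. Alternatives covered the libraries in the fit, weights, voom on the recovered reads, scaling, offset, filters, cell-marker covariates, transcript length and leaving out each library.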

Additional observations from a re-analysis of the deposited data

Results flagged for a closer look

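Among 136 groups of 4 libraries or more that were checked, 8 held 1 library apart from the rest. That share is near the 1 in 20 that chance gives. The rule weighs the gap against the range of the group, so small gaps can be flagged too. Of these, on day 13: Ino80c was 4.24 log2 CPM in replicate 1 (others 4.19), Slc7a11 was -0.039 in replicate 1 (others -1.32 to -1.14), and replicate 3 had Cirbp at 6.48 (others 6.15 to 6.20) and Dst at 8.81 (others 9.06 to 9.10), and Gbf1 was 7.85 in replicate 4 (others 7.96 to 7.98). On day 5, Slc7a1 was 5.70 in replicate 2 (others 5.55 to 5.56), Per2 was 4.67 in replicate 1 (others 4.77 to 4.78), and Zfp970 was -2.10 in replicate 4 on 2 reads, the others having none.

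The change from day 5 to day 33 differed, by the test of the difference itself, between DBA/2J RC and C57BL/6J RC for the named genes Ino80c (-0.77 log2 units), Gbf1 (0.53), Rbm3 (-2.04), Zranb1 (-0.85), Ranbp17 (-1.15) and Dhdds (0.88). It differed between RC and HFD within DBA/2J for Ino80c (-0.66) and Arl6ip6 (-0.70). Leaving out single libraries ended the call for Ino80c against C57BL/6J in 1 of 14 fits, for Rbm3 in 3, for Gbf1 in 6, for Zranb1 in 9 and for Ranbp17 and Dhdds in 10 each. Against HFD the calls ended in 9 of 15 fits for Ino80c and in 11 for Arl6ip6.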

How the results depend on the processing

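No called gene that is named here changed direction in the alternatives run, but the counts of called genes moved widely. With the 11 DBA/2J chow libraries alone 0 genes passed for day 33 against 5, day 13 against 5, day 33 against 13 and any change. With the 22 DBA/2J libraries these counts were 27, 0, 0 and 5, and 5 for the difference from HFD. With the RC libraries of 3 strains they were 53, 7, 1 and 6, with 397 for the difference from C57BL/6J and 6 for that from BALB/cJ. Array weights gave 1152, 619, 11 and 1240, and 2007, 318 and 5871 for the differences from C57BL/6J, BALB/cJ and HFD. voom gave 3, 0 and 2 for the 3 pairs of days, 70 against C57BL/6J and 0 against HFD. Median centring gave 0 for day 33 against 5 and 16 against C57BL/6J. Quantile normalization gave 3 for day 33 against 5, 2 for day 33 against 13 and 4 against C57BL/6J. log2(CPM + 1) gave 8, 3 and 11 for day 33 against 5, day 33 against 13 and any change, 73 against C57BL/6J and 6 against HFD. Keeping means above 2 gave 0 for day 13 against 5, 2 for day 33 against 13, 0 for any change and 47 against C57BL/6J. The acinar covariate gave 7 for day 13 against 5, 8 for any change and 18 against C57BL/6J, the stellate one 4, 8 and 17, and the macrophage one 0 for day 33 against 5, 16 against C57BL/6J and 0 against HFD. The transcript length covariate, chosen after seeing the data, gave 100 for day 33 against 5, 26 for any change, 419 against C57BL/6J, 3 against BALB/cJ and 0 against HFD. Leaving out single libraries gave 0 to 3 for day 33 against 5 (0 without replicate 1 or 3 of day 33 or replicate 3 or 4 of day 5), 2 to 14 for day 13 against 5 (14 without replicate 4 of day 13), 1 to 70 for day 33 against 13, 2 to 10 for any change (10 without replicate 1 of day 13), 0 to 104 against C57BL/6J, 0 to 3 against BALB/cJ and 0 to 1060 against HFD. The cause of these moves was not tested.

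No paired analysis was possible for the days because they share no replicate label in the titles. The RC and HFD libraries share title numbers, and with the number as a replicate block 0 genes differed between the diets, against 5 without it in the 22 DBA/2J libraries. Deviations of same-numbered libraries correlated at -0.287 to 0.174 over 8 pairs, of which 2 exceeded 0.1. So few pairs cannot show whether same-numbered libraries share a cage, isolation or library round. Genes near the floor, such as Zfp970 and Gm14403, are limited by depth, and 1 read was worth more in the shallower libraries.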
